A study of Citrus maxima and Citrus sinensis with 8 samples.

Results

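Leaves of Citrus grandis (pummelo, labelled with the synonym Citrus maxima) were compared with leaves of Citrus sinensis (sweet orange) after both had been treated with aluminium for 18 weeks. The comparison used 4 of the 8 libraries of the series, 2 of C. grandis aluminium leaves and 2 of C. sinensis aluminium leaves. Of the 30297 gene IDs listed, the 16283 with a mean of at least 1 FPKM over these 4 libraries were tested. FPKM is a count of sequenced fragments scaled to the length of the gene and to the total of the library. Each library came from a pool of leaves of 5 potted seedlings. No genotype, cultivar or age of the seedlings is given in the labels, nor the concentration of aluminium. The other 4 libraries were from control leaves, 2 of C. grandis and 2 of C. sinensis, and they served for the spread and for the question of where the species differed otherwise without aluminium.

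In acid soil aluminium dissolves as a trivalent ion that damages root tips and lowers the uptake of water, phosphate, calcium and magnesium. Leaves meet most of it indirectly, through poorer nutrition and root signals, and lose photosynthetic capacity. Plants tolerate the metal by releasing citrate and malate from roots, through transporters of the ALMT and MATE families under the transcription factor STOP1, or by storing chelated aluminium in vacuoles. The species compared here are related by descent: sweet orange arose from crosses between pummelo and mandarin, so parts of its genome are of pummelo origin and others of mandarin origin. Of the pair, sweet orange is known to tolerate aluminium better.

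Library totals, meaning the read numbers by which the values had been scaled, were worked back from the FPKM. They came to 17364864 and 16686351 in C. grandis aluminium, and to 16926806 and 19296323 in C. sinensis aluminium. Over the 8 libraries, 99.93% to 99.94% of the total lay on genes. Reads that could not be placed on genes are thus almost wholly outside these totals. Neither the number of reads sequenced nor the share placed can be compared between the species from them. A length of 1584 bp was the median over genes, and 3 reads on such a gene correspond to between 0.0957 and 0.115 FPKM over the 8 libraries. The 10 genes with the most reads took 4.35% and 4.43% of the reads on genes in C. grandis aluminium and 6.15% and 7.30% in C. sinensis aluminium. The C. grandis aluminium libraries were almost alike. Over 16961 genes with at least 20 reads in the pair, a chi-square on reads per gene had a median of 0.65, where counting error alone gives 0.455. The same median was 4.32 for C. sinensis aluminium, 6.21 for C. grandis control and 1.65 for C. sinensis control. The libraries differed by at least 2-fold in log2(FPKM + 1) for 24 of the genes tested within C. grandis aluminium and for 1037 within C. sinensis aluminium. Whether the C. grandis aluminium libraries share an extraction or a pool was not tested. Results are therefore also given with their mean used as a single library. The files pair no ID with a gene name or function, so neither the leaf identity of the RNA nor the genes of a pathway could be looked up, and genes are named by ID alone.

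After aluminium the leaf transcriptomes of the species differed widely and in both directions. With limma on log2(FPKM + 1), 3129 genes were higher and 3342 lower in C. grandis than in C. sinensis at an adjusted p below 0.05. These were 19.2% and 20.5% of the genes tested, together 39.7%. The median log2 difference was 0.87 among the genes called higher and -1.04 among those called lower. Among large differences the lower level was more often in C. grandis, as counted on 1 set of gene models for both species. Whether reads of the species were placed equally well on these models was not tested. At least 2-fold differences were called for 1285 genes higher (7.89% of those tested) and 1745 lower (10.7%), at least 4-fold differences for 317 higher (1.95%) and 577 lower (3.54%), and at least 10-fold differences for 64 higher (0.393%) and 148 lower (0.909%). Both C. grandis libraries lay above both C. sinensis libraries for 6458 genes and below them for 6054, together 76.8% of the genes tested. As the C. grandis aluminium libraries were almost alike, such separation arises easily. Its share without a species difference was not worked out. Over all genes tested the median log2 difference was 0.03, and the median absolute difference was 0.42. Every called gene had libraries of the species that did not overlap, and the smallest called difference was 0.26. With the mean of the C. grandis aluminium libraries used as a single library, limma called 1288 genes higher and 1838 lower, and without replicate 1 or 2 of that group it called 3114 or 3166 genes in all. In bulk leaves, fewer cells of a type and less RNA per cell cannot be told apart.

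**Figure D1:**
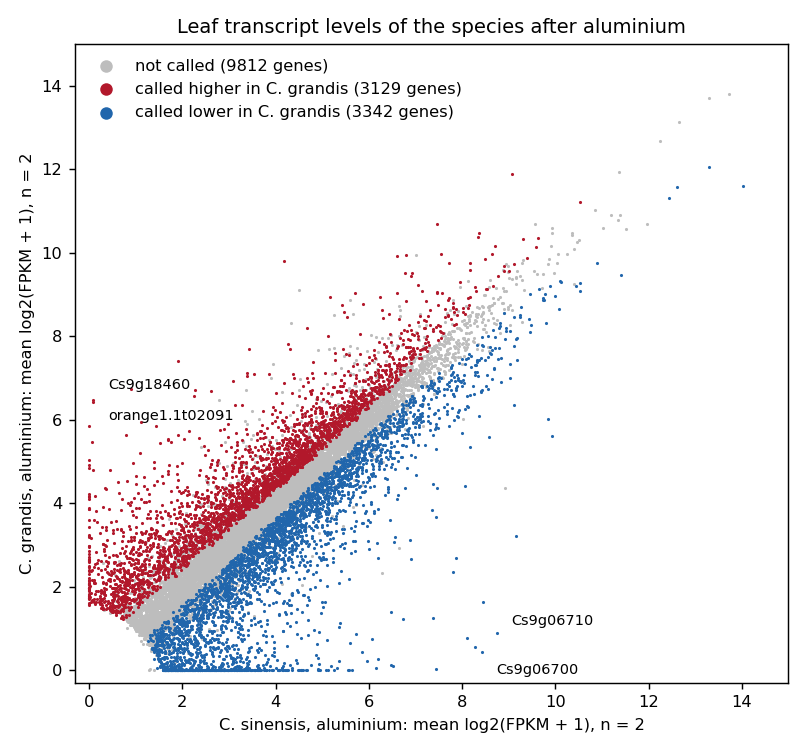
Mean log2(FPKM + 1) of the 16283 genes tested in C. grandis (vertical) and C. sinensis (horizontal) aluminium leaves, n = 2 libraries each. Red points are the 3129 genes called higher in C. grandis, blue points the 3342 called lower, and the labels mark the genes with the largest differences in each direction that met the naming rule.

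The genes with the largest differences were close to present or absent. Cs9g18460 had 88.0 and 88.1 FPKM in the C. grandis aluminium libraries, against 0 and 0.138 FPKM in the C. sinensis aluminium libraries. C. grandis had 2258 reads and C. sinensis 2, a ratio per library total of 1201 with a 95% counting interval of 332 to 9923. The log2 difference was 6.38 (SE 0.15, limma adjusted p = 5.15e-06). In control leaves it stood at 88.3 and 70.5 FPKM in C. grandis and had no read in C. sinensis.

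Next in size, orange1.1t02091 had 81.9 and 87.0 FPKM in C. grandis aluminium leaves, against 0.134 and 0 FPKM in C. sinensis aluminium leaves. C. grandis had 3805 reads and C. sinensis 3, or 1349 times as many per library total (95% counting interval 461 to 6545). Its log2 difference was 6.33 (SE 0.32, limma adjusted p = 3.69e-05). In control leaves the C. grandis libraries held 162 and 342 FPKM of this gene and the C. sinensis libraries 0.229 and 0.0384 FPKM. The species thus differed for it in both treatments, and its control libraries of C. grandis were about 2-fold apart.

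In the other direction, a pair of IDs that follow each other in the numbering led. Cs9g06700 had 0.456 and 0.259 FPKM in C. grandis aluminium leaves, against 383 and 305 FPKM in C. sinensis aluminium leaves, and the log2 difference was -7.98 (SE 0.15, limma adjusted p = 3.14e-06). Cs9g06710 had 1.33 and 0.503 FPKM in C. grandis aluminium leaves, against 489 and 379 FPKM in C. sinensis aluminium leaves, and the log2 difference was -7.85 (SE 0.26, limma adjusted p = 9.89e-06). In C. grandis the first gene had 17 reads and the second 15, and whether these reads arose from the genes themselves was not tested. In C. sinensis the genes had 17176 and 7437 reads. All 4 of these genes stayed called under each of 19 alternatives, with adjusted p-values up to 0.00248.

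**Figure D2:**
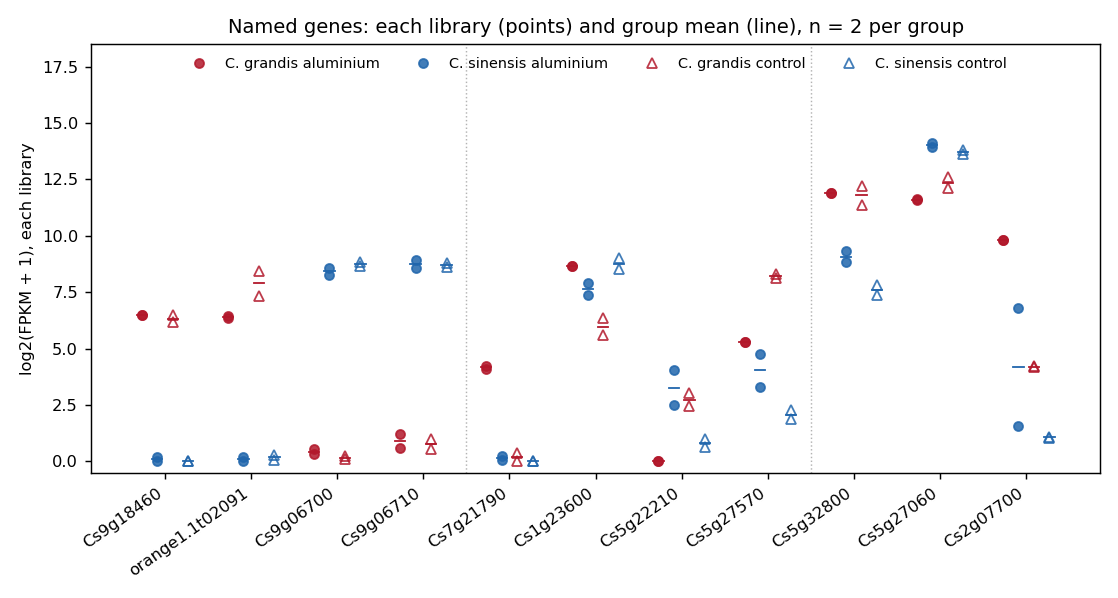
log2(FPKM + 1) of the 11 named genes in each library (points) with the group mean (line), n = 2 per group. The first 4 genes have the largest species differences, the next 4 the largest differences between the treatments, and the last 3 were chosen after their values were seen. Filled points are aluminium leaves and open ones control leaves.

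Among abundant transcripts the species shared much of their leading set. Of the 10 genes with the highest mean FPKM in each species, 8 were common to both, and of the 100 highest, 67 were. Of the 50 genes that reached 1000 FPKM in either species, 11 were called higher and 13 lower in C. grandis beside 39.7% of all genes tested called in either direction. The most abundant genes with at least a 2-fold difference were picked after their values were seen. Cs5g32800 had 3800 and 3774 FPKM in C. grandis aluminium leaves, against 454 and 634 FPKM in C. sinensis aluminium leaves. On the log2 scale the difference was 2.82 (SE 0.32, limma adjusted p = 0.000895). Cs5g27060 had 3061 and 3122 FPKM in C. grandis aluminium leaves, against 17881 and 15588 FPKM in C. sinensis aluminium leaves. On the log2 scale the difference was -2.43 (SE 0.31, limma adjusted p = 0.00156).

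Some genes had no read at all in 1 species. No read was found in either C. grandis aluminium library for 279 genes with at least 1 FPKM in both C. sinensis aluminium libraries, 1.71% of the genes tested. The reverse held for 63 genes, or 0.387%. The 279 genes had a median of 4.65 FPKM in C. sinensis and went up to 49.2 FPKM, and 56 of them stood at 10 FPKM or more. The 63 genes had a median of 4.32 FPKM in C. grandis and reached 56.5 FPKM, with 12 at 10 FPKM or more. Most were without reads in control leaves as well. Of the 279, 214 had no read in C. grandis control leaves and 40 had 1 or 2, while 25 had 3 or more, 2 of them at least 100 reads. Of the 63, 47 had no read in C. sinensis control leaves, 13 had 1 or 2, and 3 had 3 or more. Reads of both species were counted on 1 set of gene models, so a gene that is missing, silent or too different in sequence for its reads to be placed looks the same in these files, and these cannot be told apart.

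The ID prefixes divide the genes into 9 numbered series, Cs1g to Cs9g, IDs that begin with orange1.1t, and 891 IDs of the form NovelNNNNN, in which each N is a digit. The direction of the species difference depended on the series. In Cs3g, 26.6% of the 1630 genes tested were higher and 13.9% lower in C. grandis, and in Cs5g 26.7% of 2021 were higher and 14.2% lower. In Cs4g, Cs6g and Cs7g the balance lay the other way. Cs4g had 13.8% higher and 28.9% lower of 1200, Cs6g had 10.9% higher and 26.3% lower of 1266, and Cs7g had 14.0% higher and 23.6% lower of 1927. Over all genes tested these shares were 19.2% and 20.5%.

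Medians over all genes of a series, called or not, had the sign of the balance of calls in each of the 9 numbered series. The median log2 difference was 0.18 in Cs3g and 0.18 in Cs5g, against -0.12 in Cs4g, -0.14 in Cs6g and -0.07 in Cs7g. It was 0.07 in Cs1g, 0.05 in Cs2g, 0.05 in Cs8g and -0.01 in Cs9g. All 4 pairs of a C. grandis with a C. sinensis library gave the same sign in each of the 9 series. The pair medians ran from 0.16 to 0.19 in Cs3g, from 0.15 to 0.18 in Cs5g, from -0.14 to -0.13 in Cs4g and from -0.16 to -0.13 in Cs6g. The smaller medians varied more in proportion, from -0.11 to -0.06 in Cs7g, from 0.04 to 0.09 in Cs1g, from 0.02 to 0.06 in Cs2g, from 0.02 to 0.07 in Cs8g and from -0.04 to -0.02 in Cs9g. In control leaves every one of the 9 medians was positive, from 0.03 in Cs6g to 0.32 in Cs3g, over genes whose median difference was 0.17 in all. Cs3g and Cs5g were thus the highest series and Cs6g and Cs4g the lowest in control leaves also.

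Within a series the difference ran in stretches. The files give no positions, so the tested genes of each series were put in the order of their ID numbers and divided into blocks of 100, which gave 134 blocks with at least 50 genes. The median log2 difference of a block ranged from -0.31 to 0.38. Calls higher in C. grandis outnumbered calls lower in 61 blocks and the reverse held in 71. They were at least 3 times as many in 17 blocks, and calls lower were at least 3 times as many as calls higher in 12. All 4 pairs of libraries gave a positive median in 60 blocks and a negative one in 52.

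The block with the highest median lay in Cs1g, from ID number 16820 to 18210. In it 37 genes were called higher and 4 lower in C. grandis, 84% of its 100 genes had a positive difference, and the median was 0.38. An earlier block of the same series, from 4990 to 7090, had 15 genes called higher and 42 lower, with a median of -0.29. In Cs3g the block from 24860 to 26150 had 34 genes higher and 3 lower, and the block that follows, from 26160 to 27460, had 18 higher and 27 lower. Cs5g changed direction near its end. Its first 17 blocks all had positive medians, the last of them (28640 to 30200) with 28 genes higher and 4 lower and a median of 0.24. The next block, from 30210 to 31650, had 14 genes higher and 33 lower and a median of -0.12, and those after it had medians of -0.13 and 0.03. In Cs9g a single block from 9150 to 11390, with 30 genes higher, 8 lower and a median of 0.37, was preceded by blocks with medians of -0.17 and -0.10.

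**Figure D3:**
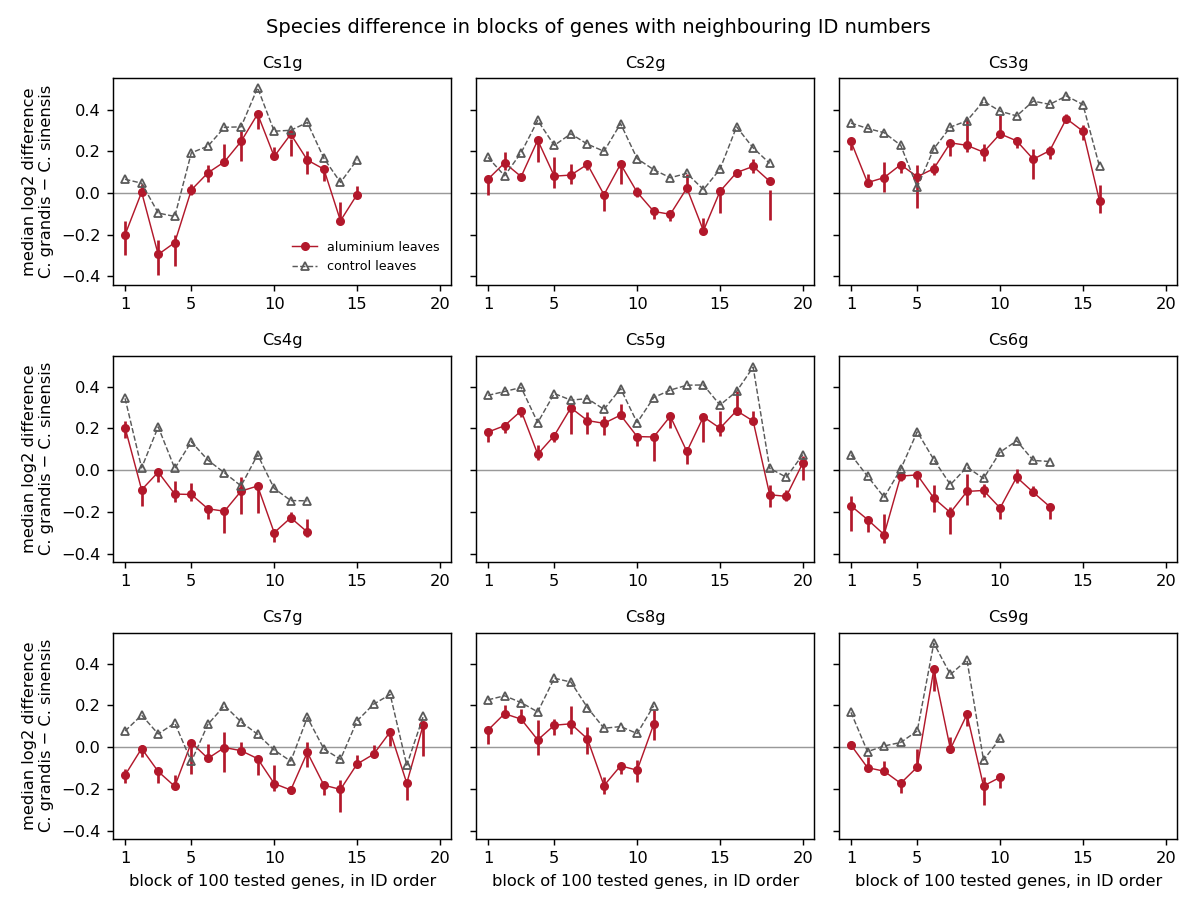
Median log2 difference (C. grandis minus C. sinensis) of blocks of 100 tested genes in the order of their ID numbers, 1 panel per series; red points are aluminium leaves with a bar over the 4 pairs of libraries, grey triangles control leaves. Cs5g stays above 0 for 17 blocks in aluminium leaves and then drops to -0.12, and in that series the control line runs above the aluminium line throughout.

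The control libraries enter the aluminium calls only through the spread. In them the order of the blocks was much alike but their level was higher. Of the 72 blocks with a positive median in aluminium leaves, 71 had a positive one in control leaves, while of the 62 with a negative median 19 had a negative and 43 a positive one. After centring each library on its median, 57 of 61 negative blocks and 59 of 73 positive blocks kept their sign in control leaves. Over the 134 blocks, the medians in aluminium and control leaves had a Pearson's r of 0.90, given as a description, since both rest on the same genes and species. In the Cs1g block of 16820 to 18210, 50 genes were higher and 4 lower in control leaves, and the median was 0.50. In the Cs5g blocks on either side of the step, 48 genes were higher and 6 lower before it and 22 higher and 26 lower after it. The aluminium effects within a species varied less between blocks. The SD of block medians was 0.0565 for aluminium against control in C. grandis and 0.0529 in C. sinensis, and 0.167 for C. grandis against C. sinensis in aluminium leaves. With blocks of 50 or 200 genes, sizes chosen after seeing the data, r was 0.85 and 0.93.

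Single neighbours leaned the same way. Among the genes of Cs1g to Cs9g, the next tested ID after a gene called higher was also called higher in 24.6% of 2542 cases and called lower in 15.7%. After a gene called lower, the next was higher in 14.6% and lower in 27.8% of 2605 cases. Over all 13407 such next genes the shares were 19.0% and 19.4%. Whether differences in sequence between the species and the gene models move with these stretches was not tested.

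Genes outside the 9 series differed more. Of the 553 NovelNNNNN IDs tested, 24.1% were higher and 31.3% lower in C. grandis, and their median absolute log2 difference was 0.95. The orange1.1t IDs had 19.6% higher and 24.3% lower of 2314, with a median absolute difference of 0.49. The corresponding medians of Cs1g to Cs9g lay between 0.35 and 0.43. NovelNNNNN IDs were also short, with a median length of 892 bp, against medians of 1571 bp for orange1.1t and from 1685 to 1835 bp for the 9 series. Among genes with no read in C. grandis and at least 1 FPKM in both C. sinensis libraries were 12.7% of the NovelNNNNN IDs tested, 2.72% of the orange1.1t IDs and 1.09% of the genes of the 9 series. The reverse set, with no read in C. sinensis, held 5.24%, 0.519% and 0.164% of them in the same order.

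Gene length, which was recovered from the FPKM, moved with the species difference. The share of genes called was lower in each longer class, with 55.0% of 725 genes under 500 bp, 49.7% of 2307 genes from 500 to 1000 bp, 34.6% of 4080 genes from 2000 to 3000 bp, and 21.5% of 297 genes of 5000 bp or more. The median absolute log2 difference was 0.92 in the shortest class and 0.24 in the longest. The spread between replicates fell as well, with median absolute differences between the C. sinensis aluminium libraries of 0.30 in the shortest and 0.12 in the longest class. Within the single level of 20 to 50 FPKM the share of calls was 69.4% of 72 genes under 500 bp, and in the longest class 4 of 50 genes were higher and 6 lower. There the median absolute difference was 0.95 in the shortest and 0.19 in the longest class, against 0.20 and 0.10 between the C. sinensis aluminium libraries.

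The level of a gene moved more with the direction of the difference than with its frequency. Between 36.9% and 43.8% of genes were called at every level of mean FPKM. Genes with a low mean were more often lower in C. grandis, with 16.2% higher and 26.1% lower of 1675 genes between 1 and 2 FPKM. Genes from 20 to 50 FPKM were more often higher, with 22.4% higher and 16.9% lower of 3427. At 100 FPKM or more the shares were 22.8% and 20.9% of 1081 genes. The mean is over the same libraries that give the difference, so a gene with reads in 1 species alone falls to a lower level. How far such genes set this lean was not tested.

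**Figure D4:**
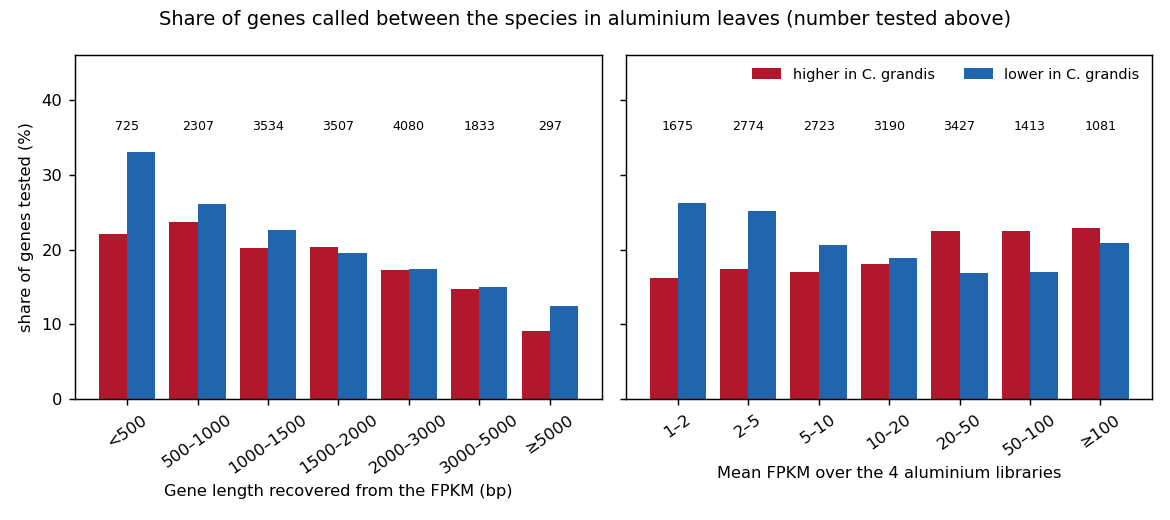
Share of genes tested (%) called higher (red) or lower (blue) in C. grandis than in C. sinensis aluminium leaves, by gene length (left) and by mean FPKM over the 4 libraries (right), with the number of genes tested above. Both shares are lowest at 5000 bp or more, and blue exceeds red in the 4 classes under 20 FPKM.

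The libraries of C. sinensis aluminium leaves were not equally far from those of C. grandis. Against replicate 1, the C. grandis libraries had median absolute log2 differences of 0.42 and 0.43, with 1382 and 1363 genes at least 2-fold higher and 1870 and 1889 at least 2-fold lower. Against replicate 2 the medians were 0.47 in both pairs, with 1848 and 1806 genes at least 2-fold higher and 2056 and 2068 lower. Of the 1037 genes at least 2-fold apart between the C. sinensis libraries, 749 were nearer to C. grandis in replicate 1 and 288 in replicate 2. Of these 1037 genes 24.9% were called between the species, against 40.8% of the other 15246. The gap that chose them also widens the spread in the test, so a lower share follows from the choice. The example with the widest gap among called genes at 100 FPKM or more was Cs2g07700, picked after its values were seen. It had 899 and 895 FPKM in C. grandis aluminium leaves, against 109 and 1.96 FPKM in C. sinensis aluminium leaves. The log2 difference was 5.64 (SE 1.43, limma adjusted p = 0.0209), and the call was lost in 4 of 19 alternatives, with an adjusted p up to 0.0938. That difference was 8.24 without replicate 1 and 3.03 without replicate 2 of C. sinensis aluminium. Either fit leaves a single library in that group and takes its gap out of the spread, so neither can judge the call. With the 4 aluminium libraries alone the call was lost (limma adjusted p = 0.0852).

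Most of what differed in aluminium leaves also differed in control leaves. In control leaves limma called 4803 of the same 16283 genes higher (29.5%) and 3089 lower (19%). Of the genes higher in C. grandis with aluminium, 75.1% were called higher in control leaves, and of those lower, 70.8% were called lower. Seen from the control leaves, 48.9% of the genes higher there and 76.6% of the genes lower there were called the same way with aluminium. The median log2 difference over all genes tested was 0.17 in control leaves and 0.03 in aluminium leaves, as deposited. Whether that shift sets these shares apart was not tested. In opposite directions 73 genes were called. These tests share 1 estimate of the spread per gene.

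A change of the species difference was tested directly, as the difference in aluminium leaves minus that in control leaves. Limma called 364 genes, 2.24% of those tested, 140 with a positive value (0.86%) and 224 with a negative one (1.38%). Of the 1680 genes called in aluminium leaves but not in control leaves, 89 passed this test, and of the 3101 called in control leaves alone, 97 did. A call in 1 treatment and not in the other was therefore mostly not backed by a called change. Of the 73 genes called in opposite directions, 61 passed. The species lay further apart with aluminium for 151 of the 364 genes and closer for 213, on the values as deposited. These counts were not worked out after centring.

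The larger change with aluminium was in C. grandis for most genes of both signs. Among the 140 positive genes the median log2 change with aluminium was 1.73 in C. grandis and 0.05 in C. sinensis, and 128 of them changed more in C. grandis. Among the 224 negative genes the medians were -0.92 in C. grandis and 0.54 in C. sinensis, and 151 changed more in C. grandis. These values come from the libraries that chose the genes and are a description. The balance of signs depended on the scaling: over all genes tested the median of this value was -0.15 as deposited, 0.04 after centring each library on its median and -0.02 after quantile normalization. After centring 222 genes were positive and 127 negative, and after quantile normalization 147 and 121.

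The number of such calls moved by over 1.5 times when any library other than C. grandis control replicate 2 was left out. It was 13 with the mean of the C. grandis aluminium libraries used as a single library, 13 again without replicate 1 or 2 of that group, and 31 without replicate 1 or without replicate 2 of C. sinensis control. It was 1498 and 932 without replicate 1 or 2 of C. sinensis aluminium, and 1001 and 483 without replicate 1 or 2 of C. grandis control. With voom on recovered reads it was 229. At an unadjusted p below 0.05 there were 3318 genes.

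Of the named genes with a positive change, Cs7g21790 was called between the species in aluminium leaves and not in control leaves. It had 17.9 and 16.0 FPKM in C. grandis aluminium leaves, against 0.174 and 0.0305 FPKM in C. sinensis aluminium leaves. In control leaves it had 0 and 0.282 FPKM in C. grandis and no read in C. sinensis. The log2 difference between the species was 4.03 with aluminium and 0.18 in control leaves, a change of 3.85 (SE 0.25, limma adjusted p = 0.00317). That call was lost with voom on recovered reads (adjusted p = 0.174) and kept by the other 17 alternatives. Some of these kept it only narrowly, such as log2(FPKM + 0.1) with a limma adjusted p of 0.0477.

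For Cs1g23600 the order of the species turned round. It had 403 and 404 FPKM in C. grandis aluminium leaves, against 166 and 237 FPKM in C. sinensis aluminium leaves. In control leaves the C. grandis libraries were the lower ones, with 47.2 and 80.7 FPKM, against 363 and 518 FPKM in C. sinensis. The log2 differences were 1.02 with aluminium and -2.79 in control leaves, a change of 3.81 (SE 0.43, limma adjusted p = 0.0145). This call was lost in 5 of 18 alternatives, with an adjusted p up to 0.118. The species call in aluminium leaves (limma adjusted p = 0.036) was lost in 6 of 19.

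Of the named genes with a negative change, Cs5g22210 turned round in the other sense. It had no read in either C. grandis aluminium library, against 15.5 and 4.67 FPKM in C. sinensis aluminium leaves, at least 216-fold lower in C. grandis when 3 reads over its pair of libraries are taken as the floor. That bound was 104-fold without replicate 1 and 344-fold without replicate 2 of C. sinensis aluminium. In control leaves C. grandis was the higher species, with 7.22 and 4.45 FPKM, against 0.569 and 0.988 FPKM in C. sinensis. The fitted change was -5.19 (SE 0.68, limma adjusted p = 0.0222), and the call was lost in 6 of 18 alternatives, with an adjusted p up to 0.15.

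Cs5g27570 kept its order but lost most of its distance. It had 38.2 and 38.1 FPKM in C. grandis aluminium leaves, against 8.90 and 26.3 FPKM in C. sinensis aluminium leaves. The log2 difference in aluminium leaves was 1.25 and was not called (SE 0.43, limma adjusted p = 0.0565), although 3 of 19 alternatives called it. It was 0.52 without replicate 1 of C. sinensis aluminium and 1.98 without replicate 2, in fits that leave a single library in that group. In control leaves it had 282 and 311 FPKM in C. grandis and 2.65 and 3.87 FPKM in C. sinensis, a log2 difference of 6.14. The change was -4.89 (SE 0.60, limma adjusted p = 0.0195) and was lost in 5 of 18 alternatives, with an adjusted p up to 0.137.

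**Figure D5:**
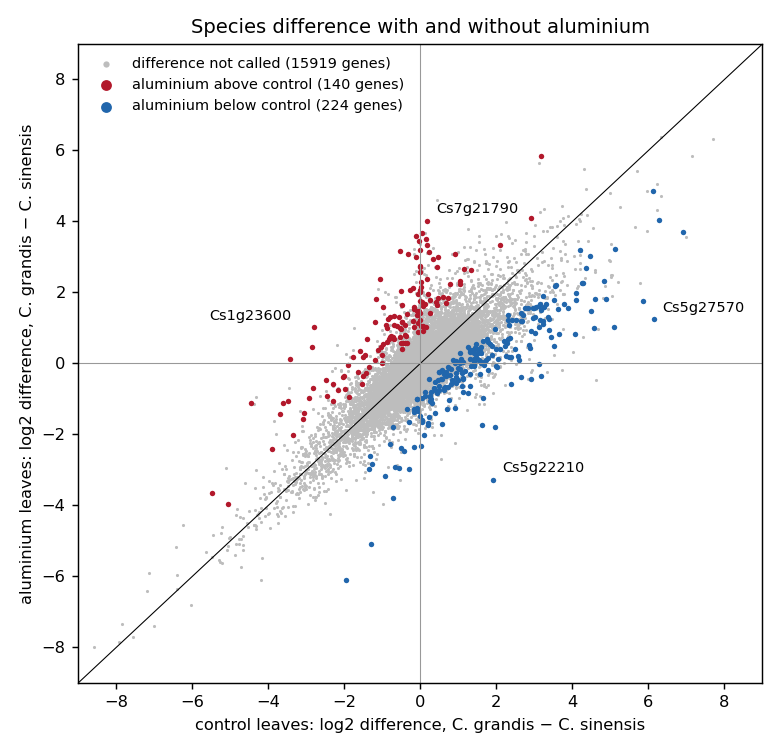
Log2 difference between the species (C. grandis minus C. sinensis) in aluminium leaves (vertical) and control leaves (horizontal) for the 16283 genes tested, with the line of equality. Red points are the 140 genes whose difference was called higher with aluminium, blue points the 224 called lower, and the 4 named genes are labelled.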

How the data were processed

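Per the file headers, the authors deposited FPKM values, in 4 tables that hold the libraries of a group as columns. Bowtie, TopHat2, HTSeq and edgeR 1.18.0 appear in the submitters' processing notes, with no roles, and the sources used here do not state a genome build or annotation. The labels call the replicates biological, each from a pool, and also speak of repeated extractions, so p-values may measure technical spread. From the FPKM, whole reads, lengths of genes and totals of libraries were worked out, with each length chosen so that the reads came out whole. Such a length was found for each of the 23370 IDs with a value above 0. That 100% of values above 0 lay within 0.01 of a whole number follows from this choice. Simulated libraries returned 99.8% of 22390 genes and 8 of 8 totals. Counting intervals and floors (3 reads) cover counting error only, since PCR copies are not independent molecules.

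Tests used limma 3.58.1 (R 4.3.3; Python 3.11.15 for summaries) and log2(FPKM + 1), which understates changes of low genes, without further scaling. The fit held all 8 libraries and 4 group means (4 residual degrees of freedom, trend on expression). It was also run on simulated data with the same added spread in every gene and group. That run does not cover the unequal spread of the real groups. Two-sided p-values were adjusted by the Benjamini-Hochberg method over the 16283 genes tested, with calls at an adjusted p below 0.05. Genes named were, per direction, the 2 largest called differences with a group mean reaching 5 FPKM and no overlap of libraries (for the change between treatments, no overlap of the 4 pairwise differences). The comparison, rules and lists were chosen with earlier results of these data known. The 11 gene lists and the leaf markers were not used, since 0 IDs had a name.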

Additional observations from a re-analysis of the deposited data

Results flagged for a closer look

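The difference between the species was not the same in both treatments in 364 genes, where limma tested the aluminium-leaf value minus the control-leaf value. Among the named genes this value was 3.85 for Cs7g21790, 3.81 for Cs1g23600, -5.19 for Cs5g22210 and -4.89 for Cs5g27570 on the log2 scale. When the C. grandis aluminium libraries were replaced by their mean, 13 genes passed. Groups of 2 libraries are too small for a check of single libraries that stand apart.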

How the results depend on the processing

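No named difference changed sign under any alternative run. The count of species calls in aluminium leaves, 6471, lay between 4538 and 7509 under the alternatives that keep all 8 libraries apart. Both ends had another number of genes tested, with 4538 calls of 11834 and 7509 of 22652. On the same 16283 genes the count under these alternatives ran from 6012 to 6467. With the mean of the C. grandis aluminium libraries as a single library it was 3126, of which 1288 were higher and 1838 lower in C. grandis, and 3125 of the 3126 were among the 6471. With a mean of at least 5 FPKM, 11834 genes were tested, 2355 were higher and 2183 lower. The balance of directions thus turned with this filter. Leaving out 1 library gave 3114 to 7708 calls, 1273 to 3773 higher and 1841 to 3935 lower. The 4 aluminium libraries alone gave 6456 calls, 5675 of them shared.

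The count of changes of the species difference, 364, became 229 with voom, 175 with the replicate block and 13 with that mean, and 13 to 1498 without 1 library; the cause was not tested. Replicate numbers share only a number: deviations of same-numbered libraries correlated between -0.0105 and 0.0451 over the 6 pairs of groups, and the block gave 6012 species calls. Depth limits genes near 3 reads.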
